A study of Mus musculus with 6 samples.

Results

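Integrins are the cell-surface receptors by which cells hold on to the matrix and to each other, and laminins are the basement membrane proteins that many integrins bind. All 37 genes whose symbols follow the names of integrin alpha chains (Itga), integrin beta chains (Itgb) or laminin chains (Lama, Lamb and Lamc) were taken from the 44792 gene symbols of the count table. They comprise 18 integrin alpha, 8 integrin beta and 11 laminin genes. The choice went by symbol, but it and the gene lists set beside the members were made with earlier results of these data known. Of the 26 integrins, 8 are known mainly from leukocytes (Itgal, Itgam, Itgax, Itgad, Itgae, Itga4, Itgb2 and Itgb7) and 18 are described here as muscle and vascular integrins. RNA was measured in heart tissue of 6 untreated C57BL/6 mice aged 3 months, 3 of them wild type and 3 carrying the R193H change in cardiac troponin I (cTnI), a regulator of heart muscle contraction. The labels do not say how the R193H allele was made or whether mice carried 1 or 2 copies of it. The question of the series is which genes differ in expression between the genotypes.

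Each heart gave 1 library, with 14736067 to 21852210 counts. Levels are in CPM, the counts of a gene relative to its library total after adjustment by the trimmed mean of M values (TMM). In these libraries 3 counts corresponded to 0.135 to 0.213 CPM. The libraries carried the markers of heart muscle at high levels, with Myh6 at 8256 to 11730 CPM. Tnni3, which encodes cTnI, measured 3202 to 3466 CPM in wild type and 3641 to 3900 CPM in R193H hearts, and counts per gene do not read the base change that defines the genotype. Replicate 2 of the R193H group stood apart on the first principal component (35.2, against -16.4 to 0.523 in the other hearts). Transcripts encoded by mitochondrial DNA took 30.6% of its counts, against 34.8 to 36.1% in the other hearts, and all 3 R193H hearts were below the wild type hearts (35.6 to 36.1%). Wild type replicate 1 had the highest summed levels of the platelet (26.9 CPM), neutrophil (25.3 CPM) and lymphocyte (17.2 CPM) marker lists. The labels call the hearts of a genotype biological repeats, and 14370 genes had enough counts to be tested with edgeR's quasi-likelihood test. Among them 1 gene (0.00696%) passed an adjusted p of 0.05, and it was no integrin or laminin. An unadjusted p under 0.05 was reached by 824 genes (5.73%), and 1699 genes (11.8%) had groups that did not overlap. Of the members, 33 were tested. Itgad, Lama1, Lama3 and Lamc3 had too few counts.

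An integrin receptor is 1 alpha chain paired with 1 beta chain. Beta 1 pairs with many alpha chains and, with alpha 7, forms the main laminin receptor of striated muscle, which ties the contractile apparatus to the basement membrane. Beta 2 pairs with alpha L, M, X and D to form the leukocyte receptors that bind ICAM molecules and complement, and beta 7 pairs with alpha 4 and alpha E. A laminin is a trimer of 1 alpha, 1 beta and 1 gamma chain. Alpha 2 laminins surround cardiac muscle cells, and alpha 4 and alpha 5 laminins are found in vessel basement membranes.

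Promoter sequences are shown for 2 leukocyte integrins among the 5 members with the lowest p, Itgam and Itgax. Itgb2 and Itgae had lower p but no promoter entry in the source used. Beside them are Itgb1, the most abundant integrin, and Lamb2, the most abundant laminin. Each is the 250 bases before the transcription start in RefSeq (GRCm38.p6), 5′ to 3′ on the plus strand, which is the strand of all 4 genes. The set thus places 2 leukocyte integrins beside 1 of the integrins grouped here as muscle and vascular and 1 laminin. Capitals mark GAGGAA or its reverse complement TTCCTC, a purine-rich core of the kind bound by the myeloid factor PU.1 and other ETS proteins. The windows are chr7:128062390-128062639 for Itgam, chr7:128129300-128129549 for Itgax, chr8:128685404-128685653 for Itgb1 and chr9:108479612-108479861 for Lamb2. The Lamb2 gene begins at 108479736 in GENCODE, inside its window, so its positions hold for the RefSeq start only.
Itgam: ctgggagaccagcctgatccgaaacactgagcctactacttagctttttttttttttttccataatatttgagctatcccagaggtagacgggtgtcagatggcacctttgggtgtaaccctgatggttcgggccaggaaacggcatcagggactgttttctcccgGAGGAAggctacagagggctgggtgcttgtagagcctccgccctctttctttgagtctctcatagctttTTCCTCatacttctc
Itgax: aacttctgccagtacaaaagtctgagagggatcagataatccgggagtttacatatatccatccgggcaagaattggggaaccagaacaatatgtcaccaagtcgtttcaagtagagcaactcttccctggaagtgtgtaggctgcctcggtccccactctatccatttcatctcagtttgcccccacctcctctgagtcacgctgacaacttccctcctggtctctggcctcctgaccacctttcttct
Itgb1: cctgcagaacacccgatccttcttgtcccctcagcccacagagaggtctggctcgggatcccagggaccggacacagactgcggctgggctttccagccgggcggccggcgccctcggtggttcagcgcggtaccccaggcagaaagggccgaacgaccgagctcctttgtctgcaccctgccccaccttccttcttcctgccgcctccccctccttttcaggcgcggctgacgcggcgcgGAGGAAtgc
Lamb2: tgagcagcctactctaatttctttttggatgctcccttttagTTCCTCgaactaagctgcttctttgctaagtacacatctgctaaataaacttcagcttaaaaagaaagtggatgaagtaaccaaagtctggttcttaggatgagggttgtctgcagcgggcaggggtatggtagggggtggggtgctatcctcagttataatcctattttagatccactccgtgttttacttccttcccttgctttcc
The Itgam window held the 6 letters 2 times, beginning 84 and 15 bases before the start. The Itgb1 window held them 1 time, 9 bases before the start, and the Lamb2 window 1 time, 208 bases before it. The Itgax window held these 6 letters on neither strand. Shorter or variant cores of this kind were not searched for in any window. Over 27025 genes with a promoter in the table, 23.1% of windows of this length held the motif on either strand, and of the 23 members that matched the table, 11 did. Among them were 1 of 4 leukocyte integrins, 5 of 14 muscle and vascular integrins and 5 of 5 laminins. GGGCGG or its reverse complement CCGCCC, the core of a GC box, was in 32.9% of all windows and in 8 of the 23. The 2 motifs can share only an end base. The GC box core was in 2 of 4 leukocyte integrins, 4 of 14 muscle and vascular integrins and 2 of 5 laminins. G and C made up 68.0% of the Itgb1 window, 49.6% of the Itgam window and 43.6% of the Lamb2 window. These matches describe letters in the windows and not bound factors. Several of the genes neighbour each other on GRCm38. Itgam (chromosome 7, 128062640 to 128118491), Itgax (128129547 to 128150657) and Itgad (128154376 to 128223816) lie in a row, with Itgal on the same chromosome (127296260 to 127335138). Itga1 and Itga2 are neighbours on chromosome 13.

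Laminin-binding alpha chains and beta 1 led the integrins, and alpha 4, beta 2 and gamma 1 led the laminins. To compare genes, CPM was divided by the length in kilobases of the longest principal transcript. On this scale Itga7 led the alpha chains, with 38.9 ± 3.72 CPM per kilobase (SD, n = 3) for the wild type and 38.5 ± 4.01 (SD, n = 3) for the R193H group. It took 42.7% ± 4.93 of the alpha chain reads per kilobase in wild type and 40.8% ± 2.004 in R193H hearts. Itga6, another laminin-binding chain, came next with 24.0% ± 3.77 and 26.5% ± 1.03. Itga5, of the fibronectin receptor, and Itga1, which binds collagen, followed at 8.08 and 6.596 CPM per kilobase over the 6 hearts, and their ranges overlapped. Itga7, Itga6 and Itga5 did not overlap with each other in any heart. The leukocyte chain Itgam had rank 7 of the 18, at 2.36 CPM per kilobase, and its range overlapped with those of its neighbours Itga3 and Itga8. Itgav, the alpha V chain of the vitronectin receptors, had rank 15 at 0.218.

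Among beta chains Itgb1 held 74.05% ± 2.77 of the reads per kilobase in wild type and 73.5% ± 0.902 in R193H hearts. Itgb5 followed with 19.8% ± 2.40 and 18.7% ± 1.36. Itgb2, the leukocyte beta chain, had rank 3 of 8 at 4.94 CPM per kilobase over the 6 hearts, and its range overlapped with that of Itgb6 at 3.58. In the laminin alpha class Lama4 took 53.9% ± 1.61 in wild type and 56.5% ± 2.32 in R193H hearts, Lama2 35.2% ± 0.773 and 34.1% ± 2.53, and Lama5 10.85% ± 0.833 and 9.33% ± 0.707. Lamb2 took 72.7% ± 3.08 and 68.9% ± 2.29 of the beta class, and Lamb1 24.9% ± 3.11 and 28.0% ± 2.15. Lamc1 was nearly the whole gamma class, with 97.3% ± 0.804 and 97.3% ± 0.419. Within each heart the order of the 3 leading laminin alpha chains and of the laminin beta chains was the same. Lama1 and Lama3 had at most 1 and 4 counts in any heart.

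**Figure D1:**
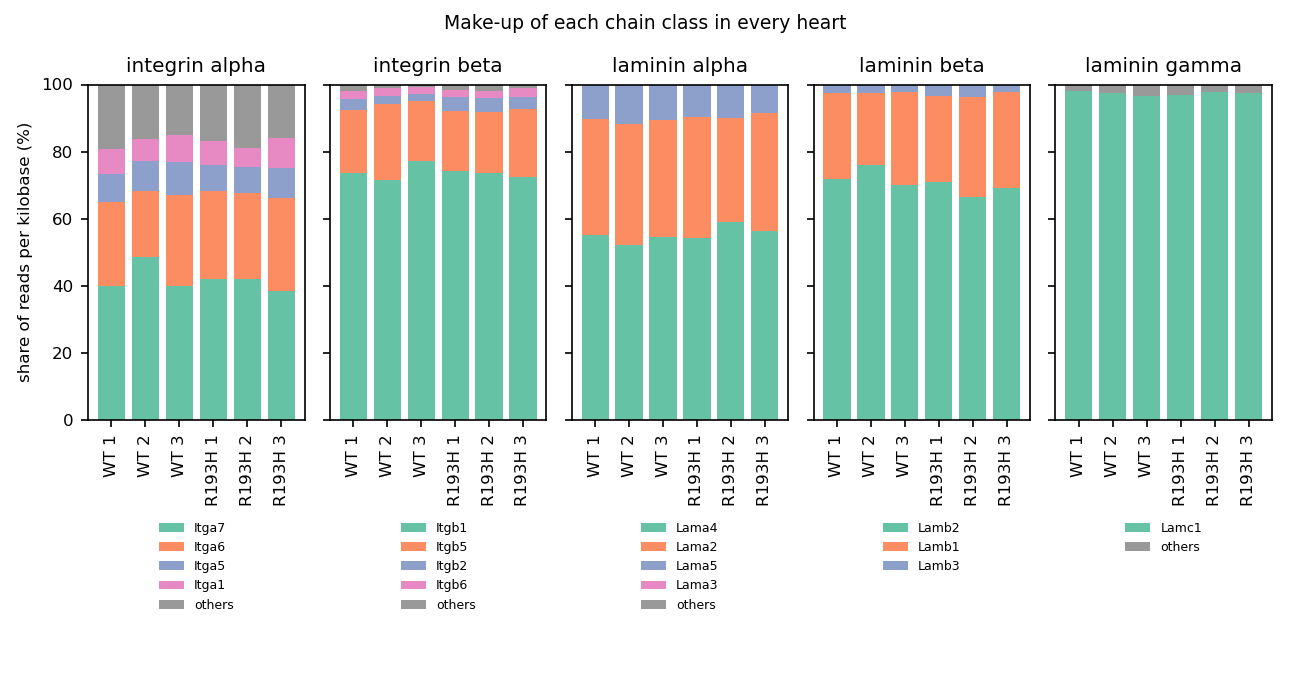
Share of the reads per kilobase (percent) that each gene takes within its chain class, stacked per heart, for 3 wild type (WT) and 3 R193H hearts. Itga7, Itgb1, Lama4, Lamb2 and Lamc1 are the largest part of their class in every heart, and Lamc1 takes over 96% of the gamma class.

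Leukocyte integrins had a log2 fold change (R193H over wild type) above 0 for 6 of the 7 tested members, where 49.9% of all genes tested were above 0. The list had a median log2 fold change of 0.66, against a median of -0.00036 over all 14370 genes tested. None passed an adjusted p of 0.05. The unadjusted p was under 0.05 for 4 of the 7 (Itgb2, Itgae, Itgam and Itgax), all higher in R193H hearts, where 3.22% of all genes were, and none was lower, where 2.51% of all genes were. Groups did not overlap for 3 of the 7, all higher in R193H hearts, where 6.02% of all genes were. Summed over the 8 genes, leukocyte integrins measured 47.4, 30.2 and 32.3 CPM in the wild type group and 56.4, 55.8 and 41.8 CPM in R193H hearts, and wild type replicate 1 was above R193H replicate 3. They took 3.53% ± 0.810 of all integrin reads per kilobase in wild type and 5.12% ± 0.764 in R193H hearts.

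Itgb2 encodes the beta chain shared by the leukocyte receptors LFA-1, Mac-1 and p150,95. It measured 13.9, 10.4 and 9.97 CPM in wild type replicates 1, 2 and 3 and 18.6, 19.6 and 15.5 CPM in R193H replicates 1, 2 and 3. Every R193H heart was above every wild type heart. This was a log2 fold change of 0.66 (SE 0.152, 1.57-fold, edgeR unadjusted p = 0.00162, adjusted p = 0.609), the lowest p of the 33 tested members. It ranked 37 among all genes tested. With no filter on low counts edgeR called it higher (adjusted p = 0.0267), and DESeq2 gave an adjusted p of 0.0825. Over all alternatives the adjusted p ran from 0.0267 to 0.992, and the log2 fold change stayed between 0.56 and 0.82 when each heart was left out in turn. Relative to Itgb1, Itgb2 stood at 0.0342 ± 0.00753 of the Itgb1 level per kilobase in wild type and 0.0527 ± 0.00568 in R193H hearts.

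Itgam, the alpha M chain known as CD11b on monocytes, macrophages and neutrophils, measured 9.79, 7.82 and 10.4 CPM in the wild type group and 12.8, 14 and 10.99 CPM in R193H hearts. The groups did not overlap, although R193H replicate 3 was close to wild type replicate 3. Its log2 fold change was 0.43 (SE 0.149, edgeR adjusted p = 0.746). Itgax, the alpha X chain known as CD11c on dendritic cells and some macrophages, measured 1.13, 2.0 and 0.851 CPM against 3.55, 2.88 and 1.82 CPM. Wild type replicate 2 was above R193H replicate 3, and the log2 fold change was 1.05 (SE 0.373, edgeR adjusted p = 0.75). Itgal, the alpha L chain of LFA-1 on lymphocytes and other leukocytes, measured 6.74, 3.39 and 3.96 CPM against 7.15, 7.37 and 4.38 CPM. Its groups overlapped (log2 fold change 0.44, SE 0.291, edgeR adjusted p = 0.90), and the value was 0.77 without wild type replicate 1 and 0.25 without wild type replicate 2.

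Itgae, the alpha E chain known as CD103 on tissue T cells and a subset of dendritic cells, had 5, 4 and 3 counts in wild type and 32, 13 and 13 counts in R193H hearts. These are 0.355, 0.242 and 0.150 CPM against 1.44, 0.595 and 0.605 CPM, with no overlap. It had the largest log2 fold change of the 33 tested members, 1.84 with an SE of 0.594 (edgeR adjusted p = 0.722), at counts close to the lower limit of what was tested. Without R193H replicate 1 the value was 1.29. Itgb7, the beta chain that pairs with alpha E, measured 3.05, 1.03 and 0.952 CPM against 3.64, 3.75 and 1.54 CPM. Wild type replicate 1 was within the R193H range. The log2 fold change of 0.86 (SE 0.519, edgeR adjusted p = 0.898) was 1.58 without that heart and 0.56 without wild type replicate 3. Itga4, the alpha 4 chain that binds Vcam1 and fibronectin, measured 12.4, 5.39 and 5.76 CPM against 9.08, 7.41 and 6.75 CPM. The means differed by less than the SD of either group (log2 fold change -0.0063, SE 0.324, edgeR adjusted p = 0.999), and the value was 0.47 once wild type replicate 1 was left out. Itgad, a beta 2 partner, had 0, 0 and 4 counts in wild type and 2, 3 and 4 counts in R193H hearts and was not tested. Its exons overlap those of the abundant gene Cox6a2 on the opposite strand over 70 bases.

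**Figure D2:**
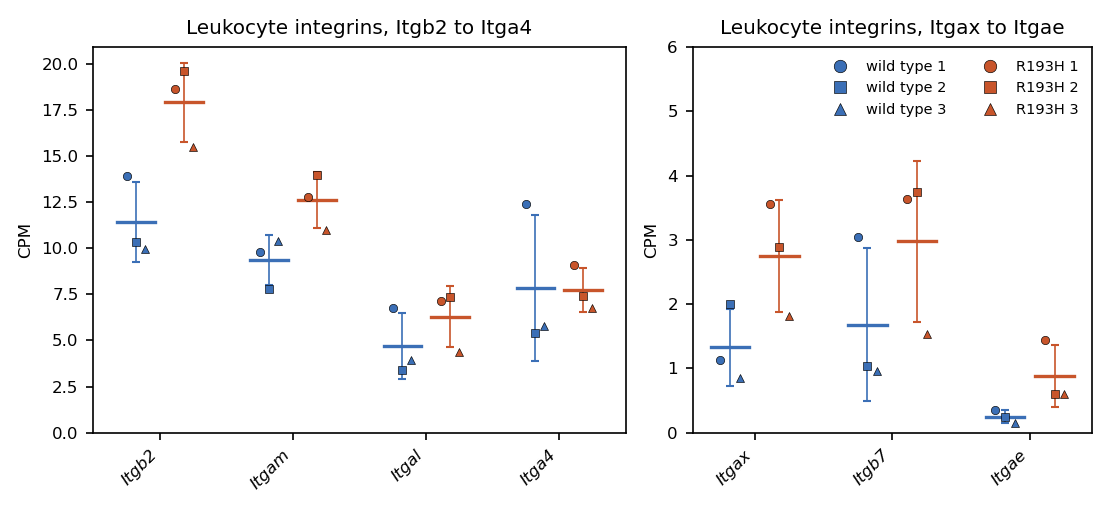
CPM of the 7 tested leukocyte integrins in each heart (symbols, one shape per replicate), with the group mean (line) and SD (bar), n = 3 per group. Itgb2, Itgam and Itgae have no overlap between wild type and R193H hearts, and wild type replicate 1 is the highest wild type heart for Itgb2, Itgal, Itga4, Itgb7 and Itgae.

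Markers of leukocytes were measured beside these genes, from lists chosen with earlier results of these data known. All 11 macrophage markers were above 0 on the log2 fold change scale (median 0.54), where 49.9% of all genes were. Of these, 9 were higher with an unadjusted p under 0.05 (3.22% of all genes), 6 were higher with no overlap (6.02%) and none passed an adjusted p of 0.05. Their summed level was 362.5 to 428 CPM in the wild type group and 444.5 to 638 CPM in R193H hearts, with R193H replicate 3 lowest in its group, as for Itgb2 and Itgam. No macrophage marker was at 0 in all hearts. The 10 lymphocyte markers summed to 4.73 to 17.2 CPM in the wild type group and 7.27 to 12.1 CPM in R193H hearts. Cd79a, of B cells, was at 4.12 CPM in wild type replicate 1 against 0.540 to 1.42 CPM in the other hearts, and wild type replicate 1 was also highest for Itga4. Of the 8 lymphocyte markers tested, 5 had a log2 fold change above 0 and 3, all of B cells, below. Nkg7, of natural killer and cytotoxic T cells, was the only one with no overlap (0.071 to 0.364 CPM in wild type against 0.559 to 1.39 CPM, log2 fold change 1.80, SE 0.614, edgeR adjusted p = 0.722). Cd3d, of T cells, had too few counts to be tested, with means of 0.267 and 0.275 CPM. Cd8a, also of T cells, measured 1.13, 0.485 and 0.150 CPM in the wild type group and 2.02, 1.69 and 0.745 CPM in R193H hearts. The 8 neutrophil markers summed to 2.30 to 25.3 CPM in the wild type group and 4.76 to 6.25 CPM in R193H hearts. Only 3 of them were tested, and all 3 had a log2 fold change below 0 (median -1.33), none with an unadjusted p under 0.05. The neutrophil marker Ly6g had counts only in wild type replicate 1 (3 counts). The part of leukocyte number in the integrin values was not tested. In whole tissue, more cells of a type and more RNA per cell cannot be told apart.

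Muscle and vascular integrins showed no difference that passed the test. Of the 18 genes, all tested, 9 had a log2 fold change above 0 and 9 below (50.1% of all genes were below 0), with a median of -0.0037. None had an unadjusted p under 0.05 or groups that did not overlap, and adjusted p ran from 0.90 to 0.996. Their summed level was 978 ± 32.2 CPM in the wild type group and 988 ± 17.1 CPM in R193H hearts.

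The laminin-binding chains were the most abundant. Itga7 measured 148, 173 and 147 CPM in the wild type group and 157, 169 and 137 CPM in R193H hearts, with a log2 fold change of -0.017 (SE 0.103). Itgb1, its partner, measured 422.5, 402.5 and 468 CPM against 440, 440 and 430 CPM, so all 3 R193H hearts lay inside the wild type range (log2 fold change 0.018, SE 0.0843). Itga6 measured 100.4, 76.0 and 107 CPM against 105, 110 and 106 CPM. Wild type replicate 2 was low, and the log2 fold change of 0.18 (SE 0.118) was 0.048 without it. Itga3 had a mean of 14.6 ± 2.05 CPM in the wild type group and 13.0 ± 3.05 CPM in R193H hearts. Itgb4, the partner of alpha 6 in epithelia and nerve sheath, had 17 to 51 counts per heart, and its log2 fold change of 0.29 (SE 0.432) was -0.25 without R193H replicate 2.

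Of the collagen-binding chains, Itga1 measured 74.9, 63.0 and 78.5 CPM in the wild type group and 71.4, 61.3 and 85.0 CPM in R193H hearts (log2 fold change 0.0091, SE 0.129). Itga11, known from fibroblasts, Itga10 and Itga2 stood at 0.066 (SE 0.172), 0.15 (SE 0.293) and -0.055 (SE 0.496) on the log2 scale. Itga11 was at -0.065 without R193H replicate 2 and Itga2 at 0.14 without wild type replicate 1. Itga5 measured 34.3, 35.3 and 40.3 CPM against 32.4, 34.8 and 35.5 CPM (log2 fold change -0.099, SE 0.0904), and Itgb5, a vitronectin receptor chain, 93.8, 109 and 94.0 CPM against 90.8, 92.7 and 103.5 CPM (-0.049, SE 0.0912). Both overlapped between the groups. Itgav measured 1.92, 2.12 and 1.10 CPM against 1.48, 1.37 and 1.21 CPM (-0.32, SE 0.32). Itgb6, Itgb8 and Itga9 stood at 0.053, 0.073 and -0.064, with SEs of 0.125, 0.28 and 0.109. Itgb8 was at -0.0085 without R193H replicate 2 and Itga9 at 0.033 without wild type replicate 1.

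Single hearts moved the values of 3 further genes among the muscle and vascular integrins. Itga8, known from smooth muscle and mesenchymal cells, was at 21 CPM in R193H replicate 2 and at 10.1 to 12.85 CPM in the other 5 hearts. Its log2 fold change of 0.33 (SE 0.273) became -0.055 without that heart. Itga2b, the platelet alpha IIb chain, measured 9.01, 0.849 and 2.15 CPM in the wild type group and 0.944, 1.97 and 1.77 CPM in R193H hearts. The log2 fold change of -1.33 (SE 0.885) was 0.036 without wild type replicate 1. The 7 platelet markers summed to 26.9 CPM in that heart and to 10.6 to 17.8 CPM in the others. Itgb3, its partner on platelets, was also highest in that heart, at 6.53 CPM against 2.38 to 5.08 CPM. The Itgb3 log2 fold change of -0.16 (SE 0.389) was 0.27 without that heart and -0.44 without R193H replicate 2. The 5 erythroid markers summed to 3094, 257 and 2973 CPM in wild type and 476 to 630 CPM in R193H hearts, and the 5 atrial markers to 679 CPM in wild type replicate 1 and 80.7 to 281 CPM in the others. The part of blood cells or of atrial tissue in these 2 genes was not tested.

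**Figure D3:**
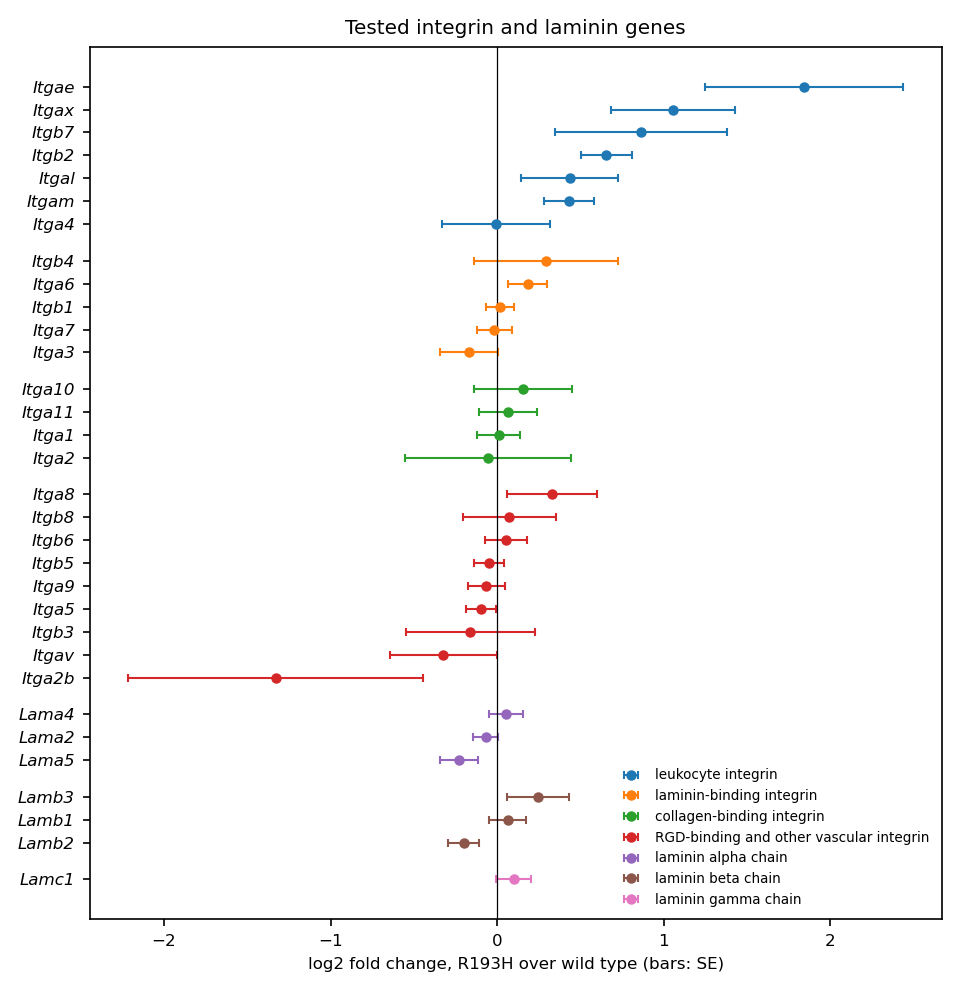
Log2 fold change of R193H over wild type (x axis) for 32 of the tested genes, ordered within groups by role, with bars for the SE (n = 3 hearts per group). The leukocyte integrins reach from -0.0063 to 1.84, while Itgb1, Itga7, Itga1, Itgb5 and Itga5 lie within 0.1 of 0.

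No laminin gene differed past the test's threshold. Of the 11, 8 were tested, with 4 log2 fold changes above 0 and 4 below, a median of 0.0023 and a range of -0.23 to 0.24. None had an unadjusted p under 0.05. The groups did not overlap for 1 of the 8, Lamb2, which was lower in R193H hearts, where 5.8% of all genes were.

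Lamb2, the beta 2 chain found in muscle and vessel basement membranes and at neuromuscular junctions, measured 390.1, 474 and 401.5 CPM in the wild type group and 355, 370 and 375 CPM in R193H hearts. Its log2 fold change was -0.20 (SE 0.0935, edgeR unadjusted p = 0.0573, adjusted p = 0.863), while it was -0.11 when wild type replicate 2 was left out. The 8 cardiomyocyte markers summed to 45620 to 48450 CPM in the wild type group and 40500 to 44710 CPM in R193H hearts, also without overlap. Of the 8, 6 had a log2 fold change below 0 and 2 above, Tnni3 at 0.18 and Actc1 at 0.087. Groups did not overlap for 4 that were lower (Myh6, Tnnt2, Ryr2 and Ttn), where 5.8% of all genes were. Tnni3 was higher without overlap, where 6.02% of all genes were. None of the 8 passed an adjusted p of 0.05. The part of heart muscle content in the Lamb2 values was not tested. Lamb1 measured 136, 132 and 156 CPM against 127, 164 and 153.5 CPM (log2 fold change 0.064, SE 0.111). The ratio of Lamb2 to Lamb1 per kilobase was 2.82, 3.54 and 2.54 in wild type and 2.77, 2.23 and 2.41 in R193H hearts, and the groups overlapped. Lamc1, the gamma 1 chain of most laminins, measured 301, 282 and 312 CPM against 287, 369 and 304 CPM (0.10, SE 0.105).

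Lama2, the alpha 2 chain whose loss causes muscular dystrophy, measured 134, 141.5 and 148 CPM in the wild type group and 135.6, 137 and 131.5 CPM in R193H hearts (log2 fold change -0.069, SE 0.0759). Lama4 measured 134, 128.5 and 145 CPM against 128, 162 and 133 CPM (0.054, SE 0.103). Lama5 measured 47.2, 54.9 and 52.5 CPM against 42.9, 51.1 and 37.9 CPM. Its log2 fold change of -0.23 (SE 0.114, edgeR adjusted p = 0.868) was -0.35 without R193H replicate 2 and -0.13 without R193H replicate 3. Lamb3, a beta chain known from epithelia, stood at 0.24 (SE 0.186), with 0.043 when R193H replicate 2 was left out and 0.44 when R193H replicate 3 was.

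Replicate 2 of the R193H group was the highest of the 6 hearts for Lama4, Lamb1, Lamc1 and Lamb3 but not for Lama2, Lama5 or Lamb2. Without it the log2 fold changes of Lama4, Lamb1, Lamc1 and Lamb3 were -0.055, -0.015, -0.012 and 0.043. The fibroblast marker Col3a1 was at 538 CPM in that heart and at 220.3 to 279 CPM in the others, and the 7 fibroblast markers summed to 1906 CPM against 1168 to 1382 CPM. Lamc3, the gamma 3 chain, had 36 counts there and 3 to 15 counts in the other hearts and was not tested. The 6 epicardial markers summed to 65.7 CPM in R193H replicate 2, 36.0 CPM in R193H replicate 3 and 12.9 to 25.4 CPM in the other 4 hearts. R193H replicate 3 was also second for Lamc3, with 15 counts. The part of fibroblast or epicardial cells in these laminin values was not tested.

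**Figure D4:**
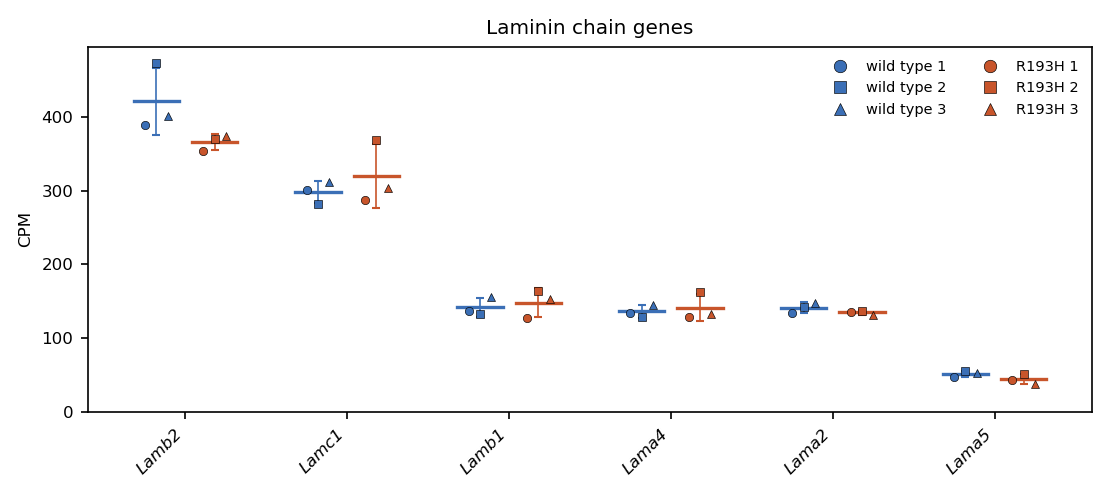
CPM of the 6 most abundant laminin genes in each heart (symbols), with the group mean (line) and SD (bar), n = 3 per group. Levels should be compared within a gene, since CPM is not divided by length here, and Lamb2 is the gene without overlap (355 to 375 CPM in R193H against 390 to 474 CPM in wild type).

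**Figure D5:**
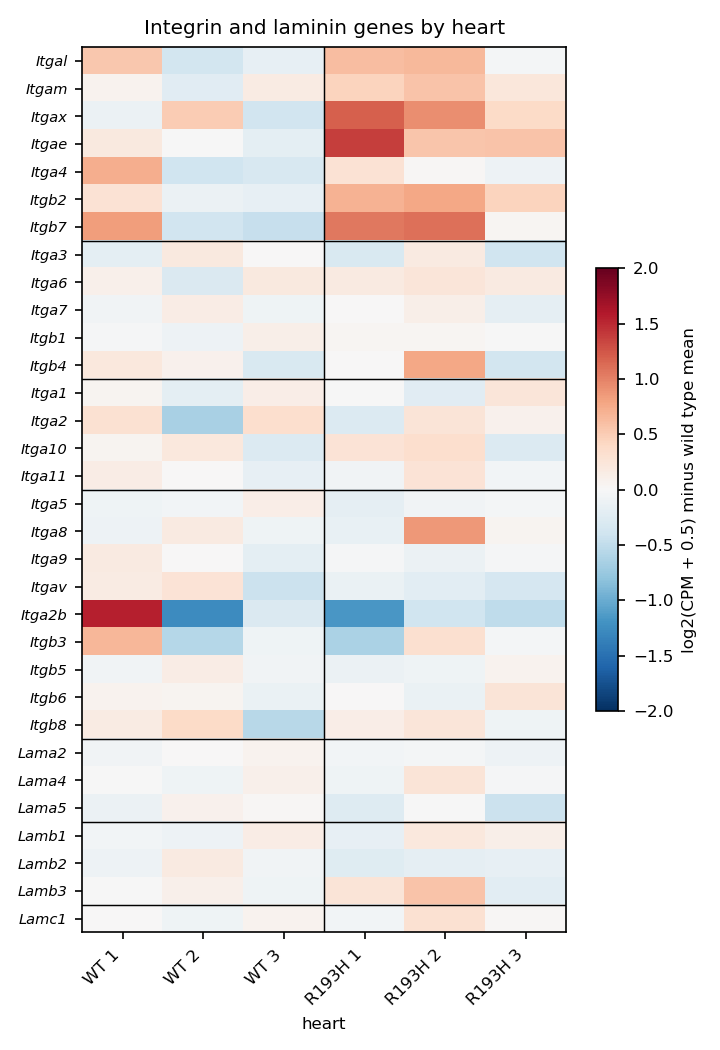
Log2(CPM + 0.5) of 32 tested genes in each heart minus the wild type mean of the gene, with lines between groups by role and between genotypes. Red is above and blue below that mean. The 7 leukocyte rows at the top are above it in R193H replicates 1 and 2, Itga4 by the least, and Itga2b and Itga8 show the single hearts described in the text.

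Across all 33 tested members, 4 (12.1%) had groups that did not overlap, close to the 11.8% of all genes tested, and 4 (12.1%) had an unadjusted p under 0.05, against 5.73% of all genes. All 4 of the latter were leukocyte integrins. The other genes of the adhesion pathway were taken from 3 lists of partners, and no member of any passed an adjusted p of 0.05. Of the integrin ligands, 8 of 10 were tested and 7 had a log2 fold change above 0 (median 0.25). Groups did not overlap for 1 of these 8 (12.5%), near the share of all genes. An edgeR unadjusted p under 0.05 was reached by 2 of the 8 (25.0%), Icam1 and Vcam1, against 5.73% of all genes. Both were higher in R193H hearts. Icam1, an endothelial ligand of the beta 2 integrins, measured 15.5, 16.85 and 16.2 CPM in the wild type group and 24.96, 25.4 and 20.1 CPM in R193H hearts, with no overlap (0.54, SE 0.112, edgeR adjusted p = 0.526). Vcam1, a ligand of alpha 4 beta 1, measured 30.65, 37.3 and 30.85 CPM against 42.9, 43.5 and 34.65 CPM (0.29, SE 0.116, edgeR adjusted p = 0.803). Vtn, which encodes vitronectin, and Tnc, which encodes tenascin C, stood at 0.20 (SE 0.108) and 0.50 (SE 0.389).

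Of the 9 basement membrane partners, all tested, 6 had a log2 fold change above 0 (median 0.085). Groups did not overlap for 1 of the 9 (11.1%), near the 11.8% of all genes. Dag1, which encodes dystroglycan, another laminin receptor of muscle, measured 437, 494 and 434 CPM in the wild type group and 416, 398 and 405 CPM in R193H hearts, with no overlap (-0.16, SE 0.084, edgeR adjusted p = 0.876). Col4a1, of the collagen IV network, stood at 0.25 (SE 0.151), the perlecan gene Hspg2 at -0.092 (SE 0.097) and the laminin receptor Bcam at 0.10 (SE 0.109). Of the 22 listed adaptors, kinases and other partners of integrins, 21 were tested, 13 with a log2 fold change above 0 and 8 below (median 0.048). Vcl, which encodes vinculin, measured 63.65, 65.4 and 56.85 CPM against 52.3, 53.8 and 52.1 CPM, with no overlap (-0.23, SE 0.0805, edgeR adjusted p = 0.746). The part of the cardiomyocyte markers, 6 of 8 below 0 and 2 above, in Dag1 and Vcl was not tested. Lims1 (PINCH-1, a partner of integrin-linked kinase) was also without overlap, lower in R193H hearts, at -0.17 (SE 0.085). Vcl and Lims1 were the 2 of the 21 without overlap (9.52%), against 11.8% of all genes. Bcar1 stood at -0.19 (SE 0.107) and Itgb1bp1 at 0.23 (SE 0.148).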

How the data were processed

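Heart RNA from 6 mice was sequenced, and raw counts by gene symbol, in 1 file for all hearts, are what the authors deposited. The submitters' processing notes name HISAT2 2.0.4 and the GRCm38 build. How reads were counted, and whether strand was used, is not given in the sources used here. Counts are therefore uncertain where annotated exons overlap another counted gene. Such pairs included Itga4 with Cerkl, Itga8 with E030013I19Rik, Itgad with Cox6a2, Itgb4 with B230344G16Rik and Itga7 with Mettl7b. B230344G16Rik and Mettl7b had 0 counts in every heart. In GENCODE, exons also overlap for Itgav with Gm13684, Itgam with Gm49368, Itga1 with Gm49395 and Itga10 with Gm42957. The same holds for Lama2 with Gm48084, Lama3 with Gm29200 and Lamc3 with Gm13441. The partners in these further pairs are not among the symbols counted.

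Columns were matched to hearts by title and groups came from the genotype label. Replicate numbers follow listing order. Testing used edgeR 4.0.16 under R 4.3.3, with the default filterByExpr filter, TMM factors and the robust quasi-likelihood test, with Benjamini-Hochberg adjustment over all 14370 genes tested. Fold changes are R193H over wild type. SEs are from the fitted weights and the moderated dispersion. Lengths and positions are from GENCODE M21 (GRCm38). Adgre1 was found under its older symbol Emr1. Scripts were tested on simulated data. With 3 hearts against 3, an exact permutation test cannot go below p = 0.1. SDs and SEs include the spread between hearts, while the CPM values given for 3 counts reflect counting only.

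One tested laminin gene is not reported here by itself and enters only counts, sums and medians over members. The members and lists were chosen with earlier results of these data known. Values in every heart were given for 18 fixed genes, members whose groups did not overlap and the 5 lowest p. From each partner list up to 4 genes were named by p. Of these, Icam1, Vcam1, Dag1 and Vcl have values in every heart and the others a log2 fold change with its SE. Alternatives were 3 other scalings, no mitochondrial genes, 2 other filters, DESeq2 1.42.0, limma-voom (limma 3.58.1), a non-robust fit and each heart left out. Merged exon lengths were added after seeing the data.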

Additional observations from a re-analysis of the deposited data

How the results depend on the processing

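No paired analysis was possible because replicate numbers were given in listing order and the labels pair no hearts. The count of genes past the threshold, 1 with all hearts, was 0 without mitochondrial genes, 38 with no filter on low counts and 40 with the DESeq2 test, and 3 to 21 with single hearts left out. Itgb2 with no filter (adjusted p = 0.0267) was the only call of a member in any of these settings. Scaling by library totals moved the median of all genes to 0.13. It turned Itga4 to 0.12, Itga7 to 0.12, Itga2 to 0.075, Itga5 to 0.028, Itga9 to 0.062, Itgb5 to 0.077 and Lama2 to 0.059, all below that shift, and moved the medians of the RGD-binding integrins and the laminin alpha chains to 0.062 and 0.059. Limma-voom turned Itga4 to 0.13 and Itga2 to 0.077. Itgam, Itgax, Itgae, Itgal, Itgb2, Itgb7, Itga6 and Lamb3 stayed above 0 and Lamb2, Lama5, Lama2, Itga3, Itga5 and Itgav below 0 with each heart left out. Signs turned, with the lowest and highest log2 fold change, for Itga4 (-0.21 and 0.47), Itga2 (-0.45 and 0.24), Itga9 (-0.16 and 0.033), Itga2b (-1.81 and 0.036), Itgb3 (-0.44 and 0.27), Itga7 (-0.084 and 0.070), Itgb1 (-0.030 and 0.081), Itga1 (-0.11 and 0.12), Itgb5 (-0.10 and 0.026), Itga10 (-0.0054 and 0.36), Itga11 (-0.065 and 0.14), Itgb6 (-0.057 and 0.14), Itgb8 (-0.20 and 0.31), Itgb4 (-0.25 and 0.59), Itga8 (-0.055 and 0.53), Lama4 (-0.055 and 0.12), Lamb1 (-0.015 and 0.16) and Lamc1 (-0.012 and 0.17). The group medians ran from 0.56 to 0.82 for leukocyte, -0.084 to 0.081 for laminin-binding, -0.022 to 0.14 for collagen-binding and -0.16 to 0.036 for RGD-binding integrins, and from -0.11 to -0.034 and -0.015 to 0.16 for laminin alpha and beta chains. The cause was not tested. With merged exon lengths the mean share over 6 hearts was 34.9% for Itga7, 20.3% for Itga6, 47.6% for Lama4, 79.5% for Lamb2 and 98.0% for Lamc1, against 41.8%, 25.2%, 55.2%, 70.8% and 97.3%, and the leading gene of each class was the same. Itgae, Itgav and Itga2, with at most 35 counts in any heart, were limited by depth.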

Other observations

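Itgb5 and Itgb6 are known to pair with alpha V alone, but Itgav was far below them per kilobase. The ratio of Itgb5 to Itgav per kilobase was 105, 110.5 and 183 in wild type and 132, 145 and 184 in R193H hearts. Itgav had 22 to 35 counts per heart and Itgb6 250 to 435. The exons of Itgav overlap those of Gm13684 in GENCODE on the opposite strand over 634 bases, but Gm13684 is not among the symbols counted. No source used here says how reads were counted. The part of counting in this ratio was not tested.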
